A study of Drosophila melanogaster with 8 samples.

Results

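The genes described here lie on chromosome 4 of Drosophila melanogaster and were chosen from the authors' deposited table of transcripts that differed at least 1.5-fold between wildtype and BEAF-32 mutant wing discs. There were 29 such genes, with 40 listed transcripts, among 3850 listed genes in all. They were placed on the chromosome through a RefSeq gene table, 18 by current symbol and 11 by a synonym. All 29 are protein coding, of 80 protein-coding genes that RefSeq places on this chromosome, or 36.25%. The other 51 had no transcript in the authors' table under a name that could be placed, and their values were not analysed here. For comparison, arms 2L, 2R and 3L held 722, 717 and 720 listed genes beside 2655, 2849 and 2739 protein-coding genes. Arms 3R and X held 861 and 561 listed genes beside 3396 and 2192 protein-coding genes. Listed genes of those arms were counted whether protein coding or not, and the shares were not tested.

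Wing imaginal discs, pouches of larval epithelium from which the wing and dorsal thorax of the adult develop, were dissected from last-instar larvae. The wildtype was the Oregon R strain and the mutant was homozygous for a BEAF-32 mutation and of matched age. Both genotypes carry the same strain label, and the allele, the sex of the larvae and the number of animals per sample are unknown here. BEAF-32 is a DNA-binding boundary (insulator) protein. Each genotype had 4 one-colour Cy3 arrays with a log2 value for each of 16637 transcripts. The first and second numbers of an array's title (1_1, 1_2, 2_1, 2_2) name the arrays below. Within a genotype, arrays with the same first number were averaged into replicate 1 and replicate 2, so that a mean ± SD has n = 2, and differences are mutant minus wildtype on the log2 scale. The labels name 2 biological and 2 experimental replicates without saying which number of the title is which. No label states that the replicates are from different animals or dissections. Any p-value therefore measures the spread between these samples, which may be technical. Because the rule that chose the genes used this same contrast, their differences are given as a description, and nothing is read from a test of them. With 1 mutant stock in the design, an effect of BEAF-32 loss and any other difference of that stock from Oregon R cannot be told apart.

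The fourth chromosome is the small dot chromosome of the fly. Most of it is packaged as heterochromatin, with the protein HP1a and methylated histone H3, yet it holds active genes whose output resembles that of genes in open chromatin. The protein encoded by Pof binds nascent RNA of active genes on this chromosome and raises their expression, while HP1a acts there as a counterweight. The genes it carries include both Pax6 genes of the fly, the only ephrin and Eph receptor genes and both plexin genes.

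Of the 29 genes, 28 had lower values in the mutant and 1, fuss, had a higher value. The median difference was -0.91, against 0.06 over all 16108 features (a named gene by its listed transcript with the highest mean, every other transcript by itself). Among listed genes of the other arms, 1825 of 3581 were lower, or 51.0%, and by arm the share ran from 40.1% on the X to 59.3% on 2L. The listed genes of chromosome 4 were lower in 96.6% of cases. No test of that contrast between arms was made, since listing itself rests on the same values. Among lower genes the sizes were close: the median difference of the 28 lower genes was -0.92 against -0.93 for the lower listed genes of the other arms, and 11 of 28 (39.3%) were lower by 1 or more against 43.9%.

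**Figure D1:**
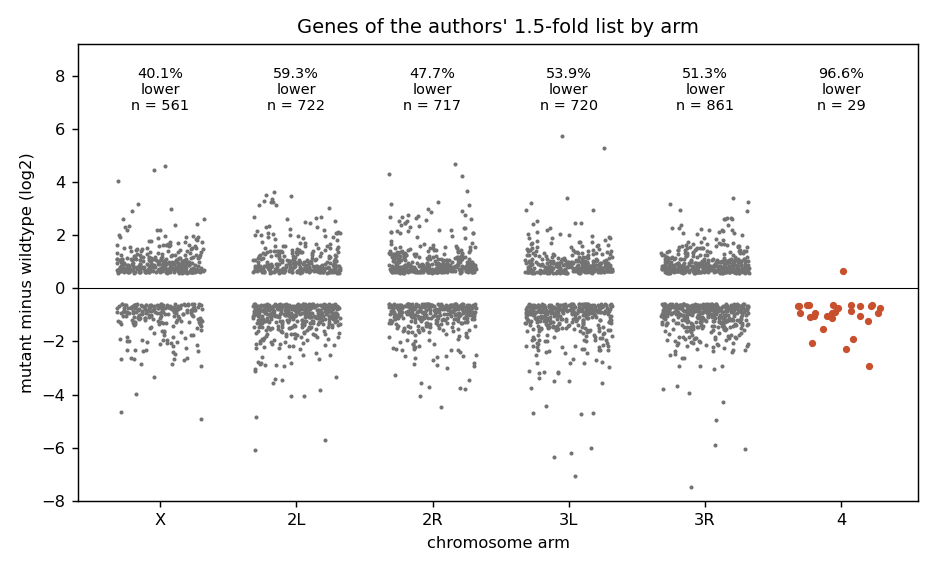
Mutant minus wildtype difference in log2 units (vertical axis) for each listed gene, by chromosome arm (horizontal axis); 1 point is 1 gene, and the gap around 0 is the 1.5-fold limit of the authors' table. Over each arm stand the percent of its listed genes that were lower in the mutant and the number of listed genes: 28 of the 29 points of chromosome 4 lie below 0.

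In each of the 28 lower genes the 4 mutant arrays were all under the 4 wildtype arrays. Over all features such separation was found downwards in 23.6% and upwards in 26.1%, and among lower listed genes of the other arms in 96.1%. Nothing is read from the count for the 28 genes, since a difference of 1.5-fold was required. limma's test, adjusted over all 16108 features, called 10 of the 29 genes lower and 0 higher (26 and 0 at an unadjusted p under 0.05), where 4.46% of all features were called lower and 2.79% higher. Among them were Sox102F, CG33978, Crk, Arl4, Ephrin, Cals, CG31997, Rad23 and Arf4. Since the 29 genes had to differ by 1.5-fold and all features did not, this count is a description too. It was 28 with all 8 arrays as separate samples, 24 with first numbers as a random block, 23 without wildtype replicate 2 and 0 when either mutant replicate was left out (13 at an unadjusted p under 0.05 without mutant replicate 1 and 24 without mutant replicate 2).

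**Figure D2:**
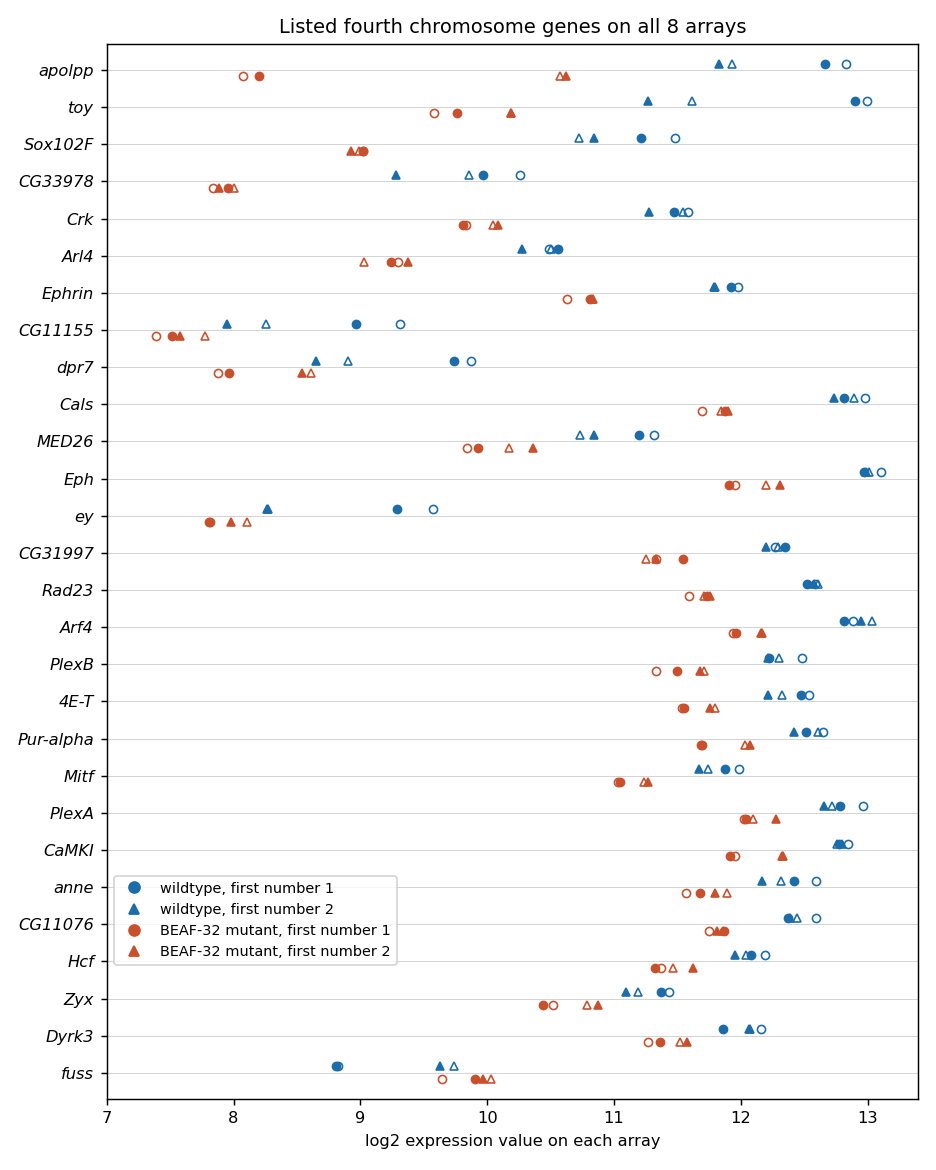
log2 expression value (horizontal axis) of 28 of the 29 genes (vertical axis, ordered by their difference) on each of the 8 arrays; blue is wildtype, red is the BEAF-32 mutant, circles and triangles are first numbers 1 and 2, and filled and open symbols are second numbers 1 and 2. Red symbols lie left of all blue symbols of the same gene for every gene but fuss.

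Genes for contact between cells and signalling at the membrane were represented by Ephrin, Eph, PlexA, PlexB, Crk, Zyx, CaMKI and Dyrk3. All 8 were lower, with a median of -0.71 and a range of -1.52 to -0.61. Ephrin (FBgn0040324, transcript FBtr0089075) encodes the membrane-bound ligand of the Eph receptor, a pair through which neighbouring cells repel or sort from each other. Ephrin read 11.92, 11.98, 11.79 and 11.79 on wildtype arrays 1_1, 1_2, 2_1 and 2_2 and 10.81, 10.63, 10.83 and 10.82 on the mutant arrays in the same order. The groups were 0.96 apart at their nearest arrays, and the means were 11.87 ± 0.11 and 10.77 ± 0.08, so that the mutant stood at 46.7% of wildtype. Eph (FBgn0025936) encodes the receptor tyrosine kinase for this ligand. Its transcript FBtr0089084 read 12.97, 13.11, 12.99 and 13.01 in wildtype and 11.91, 11.95, 12.31 and 12.20 in the mutant, a difference of -0.93. The SD of Eph was 0.03 in wildtype and 0.23 in the mutant, where replicate 1 was the lower. The other 2 listed Eph transcripts differed by -0.97 and -1.04.

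Crk (FBgn0024811) encodes an adaptor with SH2 and SH3 domains that links phosphorylated receptors to regulators of Rac and the actin cytoskeleton. Its transcript FBtr0089112 read 11.47, 11.58, 11.27 and 11.55 in wildtype and 9.81, 9.84, 10.09 and 10.04 in the mutant, a difference of -1.52, or 34.8% of wildtype. Every mutant array was at least 1.18 below every wildtype array, and the other listed transcript FBtr0089114 differed by -1.69. The plexins are receptors for semaphorins, which steer axons and the cytoskeleton of epithelial cells. PlexB (FBgn0025740) read 12.22, 12.48, 12.22 and 12.30 in wildtype and 11.50, 11.33, 11.68 and 11.71 in the mutant, a difference of -0.75 with the groups 0.51 apart. PlexA (FBgn0025741) differed by -0.67 in both listed transcripts.

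The remaining genes of this group were close to the 1.5-fold limit of 0.585. Zyx, the LIM-domain protein zyxin of actin junctions, went from 11.27 ± 0.18 to 10.66 ± 0.25. CaMKI, a calmodulin-dependent kinase gene, went from 12.79 ± 0.02 to 12.13 ± 0.28. Dyrk3, a dual-specificity kinase gene, went from 12.04 ± 0.04 to 11.43 ± 0.16 and, at -0.61, was the listed gene nearest to the limit, followed by Zyx and Hcf at -0.62 each. Transcripts just outside the limit have no gene name in the files, so no gene of this chromosome can be given there. The annotated spans of Zyx and apolpp overlap, and the sources used here do not say where their probes lie or on which strand.

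Of 7 genes for transcription and chromatin 6 were lower, with a median of -0.92. Both Pax6 genes, toy (twin of eyeless) and ey (eyeless), were among them; they start the programme of eye formation and also act in the brain. toy (FBgn0019650, FBtr0089185) read 12.90, 13.00, 11.27 and 11.62 in wildtype and 9.76, 9.58, 10.19 and 10.19 in the mutant, a difference of -2.27. No arrays overlapped, but the wildtype replicates themselves averaged 12.95 and 11.44, and the difference was -3.28 between the first replicates and -1.25 between the second. ey (FBgn0005558) had the same order of wildtype replicates, at 9.29, 9.57, 8.27 and 8.26 in wildtype and 7.81, 7.82, 7.98 and 8.11 in the mutant. The groups of ey were 0.16 apart at their nearest, and without wildtype replicate 1 its difference went from -0.92 to -0.34.

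Sox102F (FBgn0039938, FBtr0089252), which encodes an HMG-box transcription factor, was lower on every mutant array. It read 11.21, 11.48, 10.85 and 10.73 in wildtype and 9.02, 9.02, 8.92 and 8.99 in the mutant, a difference of -2.08, or 23.7% of wildtype. The gap of 1.70 between the groups was the widest of the 28 genes. MED26, a subunit of the Mediator complex that links transcription factors to RNA polymerase, went from 11.02 ± 0.34 to 10.07 ± 0.27. Hcf (FBgn0039904), host cell factor, a cofactor of several chromatin-modifying complexes, read 12.08, 12.19, 11.96 and 12.04 in wildtype and 11.32, 11.37, 11.62 and 11.46 in the mutant. All mutant arrays of Hcf were lower by at least 0.33. Mitf, a basic helix-loop-helix factor for lysosomal genes, went from 11.82 ± 0.16 to 11.15 ± 0.15.

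The exception was fuss (FBgn0039932, FBtr0089228), a gene of the Ski and Sno family of transcriptional corepressors. It read 8.81, 8.83, 9.63 and 9.74 in wildtype and 9.91, 9.64, 9.97 and 10.03 in the mutant, a difference of 0.64. Its groups overlapped, since mutant array 1_2 lay below wildtype array 2_2, and without wildtype replicate 1 the difference was 0.20. The annotated span of fuss overlaps the noncoding RNA genes lncRNA:sphinx and asRNA:CR44030, and without the strand of the probes their signals cannot be told apart.

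Genes for RNA and protein turnover were 4E-T, Rad23 and Pur-alpha, all lower. Rad23 (FBgn0026777) encodes a shuttle that carries ubiquitinated proteins to the proteasome and takes part in nucleotide excision repair. Its transcript FBtr0089121 read 12.52, 12.58, 12.58 and 12.61 in wildtype and 11.73, 11.59, 11.76 and 11.71 in the mutant. The groups were 0.76 apart, the difference was -0.88, and the other listed transcript FBtr0089122 differed by -1.24. 4E-T, which represses translation through eIF4E, went from 12.39 ± 0.17 to 11.66 ± 0.17. Pur-alpha, which binds single-stranded DNA and RNA, differed by -0.62 to -0.67 over 3 listed transcripts.

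Among genes for lipids, membrane traffic and transport all 5 were lower. apolpp (FBgn0087002, FBtr0089188), listed as Rfabg, encodes the protein backbone of lipophorin, the lipoprotein that the fat body secretes into the blood. It read 12.66, 12.83, 11.82 and 11.93 in wildtype and 8.20, 8.08, 10.62 and 10.57 in the mutant. All mutant arrays were lower than all wildtype arrays, but mutant replicate 1 minus replicate 2 was -2.46, so that the difference of -2.94 combined -4.60 between the first replicates with -1.28 between the second. Without mutant replicate 1 it was -1.71. Of 11 listed fat body markers 9 were lower in mutant replicate 1 than in replicate 2, and 3 were more than 1 apart: Lsp1beta averaged 9.83 and 12.37, Lsp1gamma 10.79 and 13.72 and Lsp2 10.99 and 13.02 in mutant replicates 1 and 2. The other 8 were less than 1 apart, among them Lsp1alpha at 11.45 and 11.75 and Acbp1 at 7.99 and 8.14, and Yp1 (8.63 and 8.29) and Cyp4g1 (8.05 and 7.85) were higher in replicate 1. Of 15 fat body markers 11 were listed, 9 lower and 2 higher in the mutant, and the log2 of their summed signal ran from 17.18 to 17.24 over wildtype arrays and from 14.30 to 15.47 over mutant arrays. Fbp1, a storage protein receptor gene, averaged 14.84 and 15.03 in wildtype and 8.61 and 8.83 in the mutant replicates, where the lowest values of the arrays were 6.83 to 6.90. The part of fat body RNA in the values of apolpp was not tested. In samples of whole discs, a smaller amount of a tissue or cell type in the sample and less RNA per cell cannot be told apart.

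Arl4 (FBgn0039889, FBtr0089153) encodes a small GTPase of membrane traffic; it read 10.56, 10.49, 10.28 and 10.51 in wildtype and 9.24, 9.29, 9.38 and 9.03 in the mutant. Its difference was -1.22, with both replicates alike at -1.26 and -1.19. Arf4, another small GTPase gene of the Golgi, went from 12.92 ± 0.10 to 12.05 ± 0.15, and anne, a P-type ATPase gene, from 12.37 ± 0.19 to 11.73 ± 0.16.

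Of genes known mainly from neurons, dpr7, CG11155 and Cals were listed and all were lower. Cals (FBgn0039928, FBtr0089207), a calsyntenin gene for a cadherin-like membrane protein, read 12.81, 12.98, 12.73 and 12.89 in wildtype and 11.87, 11.70, 11.90 and 11.84 in the mutant. The SD of Cals was 0.06 in both genotypes and the difference -1.03. dpr7 (FBgn0053481), an immunoglobulin-domain recognition protein gene, read 9.74, 9.87, 8.65 and 8.90 in wildtype and 7.96, 7.88, 8.54 and 8.61 in the mutant in transcript FBtr0089142. Its groups were only 0.04 apart, and the difference of -1.04 combined -1.88 between the first replicates with -0.20 between the second. Without wildtype replicate 1 it was -0.53. CG11155 (FBgn0039927, FBtr0089193), annotated as an ionotropic glutamate receptor gene, read 8.97, 9.31, 7.95 and 8.26 in wildtype and 7.52, 7.39, 7.58 and 7.78 in the mutant. Its difference was -1.06, with the groups 0.17 apart and wildtype replicate 1 higher than replicate 2 by 1.03, and without wildtype replicate 1 it was -0.54.

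In toy, ey, dpr7 and CG11155 the wildtype replicates were more than 1 apart, with replicate 1 the higher. Wildtype replicate 1 was also the higher in 3 of 3 listed neural markers, 6 of 9 haemocyte, 8 of 12 salivary gland, 5 of 11 fat body, 3 of 5 muscle and 4 of 5 wing disc epithelium markers. Wildtype replicates were more than 1 apart in 2 of the neural, 2 of the haemocyte, 2 of the fat body, 1 of the salivary gland and 1 of the wing disc markers. Of 10 neural markers 3 were listed, all lower in the mutant with none called by limma (1 at an unadjusted p under 0.05). Among them fne averaged 9.96 and 8.32, Syt1 9.97 and 9.02 and nrv3 12.33 and 11.21 in wildtype replicates 1 and 2. The log2 of their summed signal ran from 11.60 to 12.83 over wildtype arrays and from 10.48 to 11.49 over mutant arrays. Of 8 eye disc markers only eya was listed, at 10.02 and 9.19 in wildtype replicates 1 and 2 and lower in the mutant by 1.08 (limma adjusted p = 0.13). The part of any of these tissues in the values of these 4 genes was not tested.

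The 3 genes without a known role were lower too. CG33978 (FBgn0053978, FBtr0100021) read 9.97, 10.25, 9.28 and 9.86 in wildtype and 7.96, 7.84, 7.88 and 8.01 in the mutant, a difference of -1.92 with the groups 1.27 apart. CG31997 went from 12.28 ± 0.04 to 11.36 ± 0.10. CG11076 went from 12.45 ± 0.05 to 11.82 ± 0.02 in the transcript with the highest mean and by -1.03 in the other listed transcript, the widest gap of 0.40 between transcripts of 1 gene among the 9 genes with several. All 39 listed transcripts of the 28 lower genes were separated in the same direction, as were 96.1% of lower listed genes on the other arms. A transcript has a gene name only if it passed the 1.5-fold limit. Transcripts of these genes that changed less cannot be seen here, and nothing is read from this count. Whether transcripts of 1 gene share probes is unknown here.

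The spread between replicates of 1 genotype is a measure that the rule did not use directly. In the mutant, 26 of the 29 genes, and 25 of the 28 lower genes, were lower in replicate 1 than in replicate 2. This was so for 51.1% of all features and 49.8% of lower listed genes on the other arms, where the share by arm ran from 40.4% to 53.3%. Among the 29 genes the exceptions were Sox102F (by 0.07), Arl4 (by 0.06) and CG31997 (by 0.14), and over the 40 transcripts 34 showed this order. It was also found in 3 of 3 listed neural, 9 of 11 fat body and 3 of 5 muscle markers and 5 of 6 listed lipoprotein genes. It was found in 5 of 12 salivary gland, 2 of 9 haemocyte and 1 of 5 wing disc epithelium markers and 0 of 6 Eph partner identifiers. Whether this order depends on the expression level of a gene was not tested. The median of mutant replicate 1 minus 2 was -0.22 for the 29 genes and for the 28 lower genes, and 0.0015 for the lower listed genes of the other arms. In wildtype 25 of the 29, all of them among the 28 lower genes, were higher in replicate 1. This was so for 53.4% of all features and 76.4% of lower listed genes on the other arms, where the share by arm ran from 74.7% to 82.7%. The median was 0.16 for the 29 genes, 0.17 for the 28 lower genes and 0.23 for those lower listed genes of the other arms. The difference was larger between the first replicates than between the second in 27 of the 28 lower genes, CG31997 being the exception. That count is made of the 2 orders just given and is not a further result, and its share among other genes was not counted. The labels do not say that first numbers pair samples across genotypes. The median over the 29 genes, fuss included, was -0.96 between the first replicates and -0.57 between the second. For listed genes of the other arms, lower ones only, it was -1.06 and -0.82. With 2 replicates of a genotype no test of this shared order over samples was available, and genes of 1 array are not independent.

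**Figure D3:**
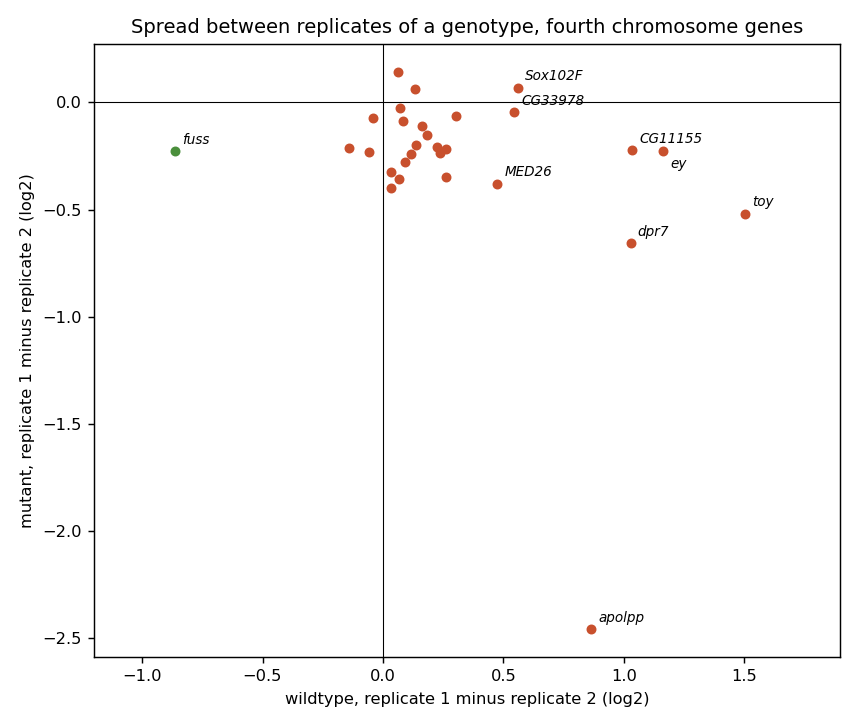
Replicate 1 minus replicate 2 in wildtype (horizontal axis) and in the mutant (vertical axis), in log2 units, for the 29 genes; green is fuss and red the 28 lower genes, and the genes farthest from the rest are named. Most points lie right of 0 and below 0, with toy, ey, dpr7 and CG11155 more than 1 to the right and apolpp at -2.46 on the vertical axis.

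The listed genes were spread along the whole chromosome. In the order of the 80 protein-coding genes, 12 stood alone and 17 formed 6 runs of direct neighbours. One of the longest, of 4 genes, held 4E-T, fuss, toy and PlexA, in which the single higher gene lay between lower ones. CG31997, CG33978 and Arl4, all lower, were direct neighbours too. Cals, Arf4 and CG11155 formed a run of 3, and MED26 with Sox102F, Zyx with apolpp and Mitf with Dyrk3 were pairs. Ephrin and Eph stood at places 37 and 40 of this order. The annotated spans of 9 of the 29 genes overlap another gene. No coordinates are given because the sources used here do not name the build of the array design.

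**Figure D4:**
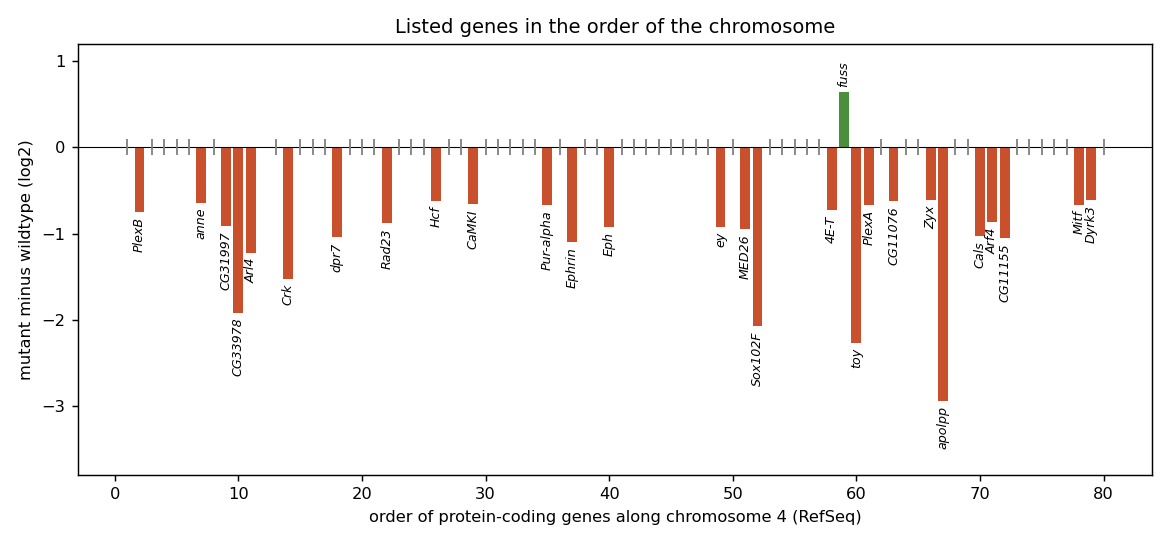
Mutant minus wildtype difference in log2 units (vertical axis) of 28 of the 29 listed genes, placed by their order among the 80 protein-coding genes of chromosome 4 (horizontal axis); grey ticks are genes with no placed transcript in the authors' table. Bars below 0 occur along the whole order, and fuss is the single bar above 0.

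Regulators of this chromosome and of heterochromatin were looked up as a list of 20 genes on other chromosomes, of which 6 were listed and could be named. Pof and Adar fell, 4 did not pass limma's test, and 0 rose (1 at an unadjusted p under 0.05). Pof read 11.83, 11.83, 11.50 and 11.58 in wildtype and 10.58, 10.53, 10.56 and 10.81 in the mutant. No mutant array of Pof reached the lowest wildtype array, and the difference was -1.07 (SE 0.16, limma adjusted p = 0.0371). The mutant replicates of Pof averaged 10.55 and 10.69, and mutant replicate 1 was the lower in 3 of the 6 listed regulators. Whether the lower values of Pof had a part in those of the genes on this chromosome was not tested. Adar, the RNA-editing deaminase gene, fell by 1.16 on the log2 scale (limma adjusted p = 0.0358). Of the genes that did not pass, ADD1, whose protein associates with HP1a, differed by -0.68 and LBR, the lamin B receptor gene, by -0.77. The HP1 paralogue gene HP1c differed by -0.82, and piwi, a gene of the small-RNA silencing pathway, by 0.60. The gene of HP1a itself and the histone methyltransferase gene egg were not listed under a name that could be matched. A listed gene had to differ by 1.5-fold, so these counts are taken over selected genes.

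**Figure D5:**
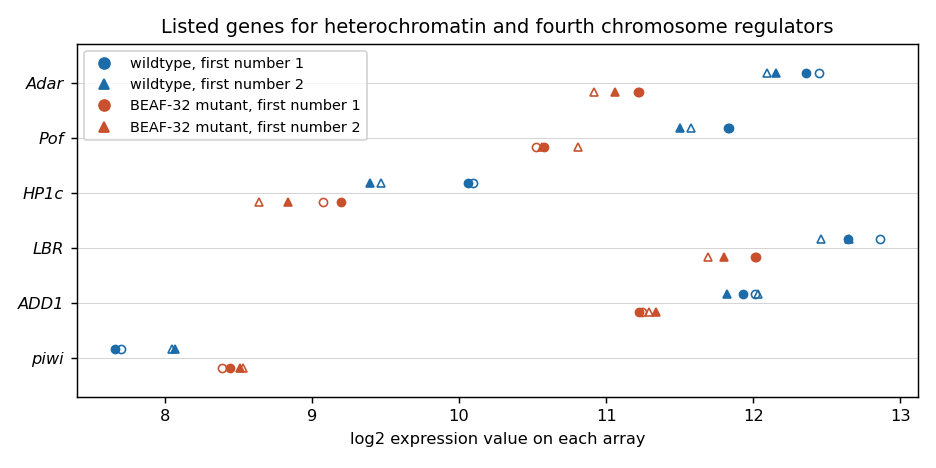
log2 expression value (horizontal axis) of the 6 listed regulator genes (vertical axis) on each array; blue is wildtype, red is the BEAF-32 mutant, circles and triangles are first numbers 1 and 2, and filled and open symbols are second numbers 1 and 2. The red symbols of Pof, at 10.53 to 10.81, lie left of its blue symbols, at 11.50 to 11.83.

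Partners of the chromosome 4 genes that lie on other chromosomes did not share 1 direction. Of 15 Eph and ephrin signalling partners 5 were listed, with 6 identifiers since Csk stood under a pair of them; Src42A, a Src-family kinase gene, rose by 1.52 (limma adjusted p = 0.0185), 0 fell (1 at an unadjusted p under 0.05) and 5 identifiers did not pass. Of 12 semaphorin and plexin pathway genes only the ligand gene Sema2b was listed, and it fell by 1.57 on the log2 scale (limma adjusted p = 0.0158). Of 12 Crk partners the receptor gene Pvr (0.63, limma adjusted p = 0.0681) and p130CAS (0.77) were listed and neither passed (1 higher at an unadjusted p under 0.05). Of 12 further retinal determination genes eya and hth (-0.93) were listed and neither passed (1 lower at an unadjusted p under 0.05). Of 12 genes for lipoprotein assembly and uptake 6 were listed, 3 fell and 0 rose (0 at an unadjusted p under 0.05). Those that fell were Fatp3, a fatty acid transport protein gene (-2.11, limma adjusted p = 0.0168), Mtp, which loads lipid onto apolpp's product (-1.23, limma adjusted p = 0.0248), and the lipid droplet gene Lsd-1 (-1.84, limma adjusted p = 0.0292).

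Of the other marker lists, 12 of 15 salivary gland markers were listed and 11 fell with 0 rising, 9 of 14 haemocyte markers were listed and 5 rose with 0 falling, and 5 of 14 muscle markers were listed and 3 fell with 0 rising. None of these 3 lists had a further marker in the opposite direction at an unadjusted p under 0.05. The summed signal of the listed salivary gland markers, as log2, was 17.65 to 17.80 over wildtype and 13.64 to 13.81 over mutant arrays. In the same order it was 13.38 to 14.04 and 15.32 to 15.44 for haemocyte markers. For muscle markers it was 12.79 to 12.84 and 11.36 to 11.51. Of 15 fat body markers 5 fell and 0 rose, with 2 higher at an unadjusted p under 0.05, among them the fatty acid synthase gene FASN1 at 2.49 (limma adjusted p = 0.0904). Of 16 wing disc epithelium markers 5 were listed, of which wg rose and 4 did not pass. The log2 of the summed signal of these 5 ran from 14.32 to 14.53 over wildtype arrays and from 14.17 to 14.32 over mutant arrays. The part of other tissues in the values of the 29 genes was not tested.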

How the data were processed

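Wing disc RNA was reverse transcribed from oligo-dT and labelled for NimbleGen arrays, according to the protocols in the labels. The deposited log2 values were made by the authors with RMA and Partek, per the submitters' processing notes; RMA brings arrays towards a common distribution, which can reduce a change common to most genes, although the deposited columns are not identical in distribution. The authors' deposited table holds a wildtype over mutant ratio, a signed fold change, p-values and, as scores, F statistics and sums of squares; its p-values were not used. On the log2 scale its ratio matched the difference of array means within 0.0001, and of 4381 transcripts past 1.5-fold among the deposited values, 2 were missing from it. Per the file headers, transcripts carry gene names only in that table. Of its 3850 genes, the RefSeq table (assembly Release 6 plus ISO1 MT) gave a symbol match for 2541 and a synonym match for 1079. Array minima ran from 6.83 to 6.90 and array medians from 9.36 to 9.43.

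limma 3.58.1 in R 4.3.3 was run on 2 averaged replicates per genotype over 16108 features, and p-values were adjusted by Benjamini-Hochberg, with calls made under 0.05. Residual degrees of freedom were 2. The step was tested on simulated data. Python 3.11.15 and matplotlib 3.10.9 were used for counts and figures. The genes and lists were chosen with earlier results of these data known. Of the 29 genes 28 are named and 1 is not reported here; values on every array are given for 11 genes that the selection named (Ephrin, Eph, Crk, Rad23, Hcf, PlexB, toy, Sox102F, Arl4, apolpp, fuss), for others that differed by at least 1, and for ey and Pof, chosen after their values were seen. In the lists on other chromosomes, called genes with the smallest adjusted p are named, and some listed genes beside them were chosen after their values were seen. Promoter motifs were not analysed here. Alternatives covered how arrays form replicates, leaving out replicates or arrays, normalization, level filters, the transcript that stands for a gene and the placing of genes.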

Additional observations from a re-analysis of the deposited data

Results flagged for a closer look

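Among 58 groups of 4 arrays (29 genes in each genotype) 1 array stood apart from the other 3 by a gap test at the 95% level. It was Ephrin on mutant array 1_2, at 10.63, where the other mutant arrays read 10.81 to 10.83. Chance alone marks about 1 in 20 groups of 4 independent arrays. Arrays that share a first number can be alike, so that rate need not hold here.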

How the results depend on the processing

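The direction of all 29 genes was the same under every alternative run, but 7 of 116 single-gene values moved by over 1.5 times when a replicate was left out. Without wildtype replicate 1 they were -0.34 for ey, -0.54 for CG11155, -0.53 for dpr7 and 0.20 for fuss; without wildtype replicate 2 they were 1.07 for fuss and 1.63 times the full value for ey; and apolpp was -1.71 without mutant replicate 1. Of 319 values under the other alternatives 0 moved by over 1.5 times. In leave-one-out runs the median difference ran from -0.97 to -0.71 and the count of separated higher genes from 0 to 1. The count of separated lower genes was 28 each time, an outcome fixed in advance. All mutant arrays of these 28 genes lay under all wildtype arrays, so leaving arrays out could change neither their separation nor their direction. By current symbol only, 18 of 18 genes were separated and 6 were called lower. limma's calls among the 29 genes depended on how arrays form replicates: with the second number averaged 28 lower and 1 higher, with 8 arrays as separate samples 28 lower, as a random block within genotype 24 lower, against 10 lower. Leaving out replicates or arrays gave 0 to 23 lower and 0 to 1 higher. Over all features the calls went from 450 higher and 719 lower to 6893 and 5472, 3935 and 3691, and 1446 and 1881 in those settings, and ran from 0 to 2476 higher and from 0 to 2380 lower in leave-one-out fits. With the first number as a replicate block across genotypes, which the labels do not say pairs samples, limma called 11 of the 29 lower, and 736 features higher and 1036 lower; replicate deviations of the genotypes correlated at 0.31 across features. Without mutant replicate 1 or 2 the spread came from the wildtype pair alone. Counting names that fit 2 genes, added after seeing the data, gave 30 of 31 lower, a count that may hold genes of other arms. The number of arrays limits the precision.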

Other observations

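A pair of listed names fitted a gene of chromosome 4 and a gene of another arm in the RefSeq table and were left out of the 29. Caps, which fits Cadps of chromosome 4 and caps, differed by -0.88. ATPsyn-b, which fits ATPsynbeta of chromosome 4 and ATPsynB, differed by -0.65 in both listed transcripts. Both names were lower in the mutant, but which gene each stands for was not settled here, so either may belong to another arm.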
